A study of Mus musculus with 8 samples.

Results

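HTT ChIP-seq peaks of untreated HttQ111/+ cortex were compared with those of untreated Htt+/+ cortex. Peaks on chromosomes 1 to 19 were sorted by their coordinates alone. A peak was in both lists when it overlapped a peak of the other genotype by 1 bp or more, and otherwise belonged to HttQ111/+ alone or to Htt+/+ alone. The HttQ111/+ list held 46749 such peaks, of which 4594 were in both lists and 42155 in HttQ111/+ alone. The Htt+/+ list held 43435, of which 4589 were in both lists and 38846 in Htt+/+ alone. These lists are 2 of the 4 peak lists of the series, which together held 174449 peaks over all sequences.

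The series measured HTT on chromatin by ChIP-seq with the antibody EPR5526 in cortex of male B6.HttQ111/+ and B6.Htt+/+ mice. From the age of 4 months these were left untreated or carried for 4 weeks a single dose of 500 µg of an antisense oligonucleotide (ASO) that lowers both forms of huntingtin. Both genotypes compared here were untreated, and HttQ111 is a knock-in allele in which a human HTT exon 1 with an expanded CAG tract stands in the mouse Htt gene, so that HttQ111/+ cortex holds an expanded and a normal form of HTT in every cell that expresses the gene. Each genotype had 1 library, made from chromatin of 3 mice per the labels. For ASO-treated cortex the methods state 2 mice instead, and which number holds for these pools is not known. No difference between the genotypes could therefore be set against a spread between replicates, and animal, pool and library cannot be told apart from genotype. A peak list holds no expression values, so the labelled tissue was not checked against cell type markers.

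Huntingtin is a large scaffold protein that moves between cytoplasm and nucleus, and expansion of the glutamine tract that its CAG repeat encodes causes Huntington's disease, in which neurons of the striatum and later the cortex are lost. It has no classical DNA-binding domain, and its known nuclear partners are regulators of transcription such as REST, SP1 and the Polycomb repressive complex. ChIP recovers DNA near the bound protein, and start sites of genes in CpG-rich sequence are the most accessible chromatin of most tissues.

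Shown here, to let the letters at the top of each class be read, are the 160 bp around the summit of up to 3 peaks per class with the highest −log10 p-value among those without annotated exons in that window, on the plus strand of NCBIM37 (mm9), with every CpG in capitals. In HttQ111/+ alone the windows lay at chr13:22514903-22515062 (outside protein-coding genes, 28167 bp from the start of Vmn1r200, a vomeronasal receptor gene), chr4:42683920-42684079 (outside protein-coding genes, 2464 bp past the start of Gm9969) and chr10:43199592-43199751 (in an intron of Bend3, 726 bp past its start).
Vmn1r200, HttQ111/+ alone: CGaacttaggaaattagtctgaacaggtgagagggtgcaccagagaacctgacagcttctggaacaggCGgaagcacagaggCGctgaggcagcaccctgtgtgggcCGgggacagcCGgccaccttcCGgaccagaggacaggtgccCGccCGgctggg
Gm9969, HttQ111/+ alone: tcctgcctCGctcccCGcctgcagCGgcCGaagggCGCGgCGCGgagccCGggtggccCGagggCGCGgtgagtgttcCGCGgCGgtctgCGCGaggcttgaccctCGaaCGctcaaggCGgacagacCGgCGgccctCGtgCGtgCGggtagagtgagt
Bend3, HttQ111/+ alone: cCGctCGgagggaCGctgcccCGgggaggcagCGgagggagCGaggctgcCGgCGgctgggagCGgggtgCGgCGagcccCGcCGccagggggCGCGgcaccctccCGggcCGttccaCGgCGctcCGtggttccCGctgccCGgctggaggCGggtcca
The Gm9969 and Bend3 windows held 25 and 23 CpGs at a GC content of 75% and 81.9%, and the Vmn1r200 window 8 at 63.8%.

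In Htt+/+ alone they lay at chr17:80878955-80879114 (in an intron of Sos1, 758 bp past its start), chr14:68380053-68380212 (in an intron, 16847 bp past the start of Gnrh1, which is the nearest) and chr17:53682359-53682518 (outside protein-coding genes, 3663 bp upstream of 4921523A10Rik).
Sos1, Htt+/+ alone: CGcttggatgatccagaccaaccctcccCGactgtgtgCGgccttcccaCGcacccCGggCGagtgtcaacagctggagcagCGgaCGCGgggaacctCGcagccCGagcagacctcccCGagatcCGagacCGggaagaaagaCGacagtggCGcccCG
Gnrh1, Htt+/+ alone: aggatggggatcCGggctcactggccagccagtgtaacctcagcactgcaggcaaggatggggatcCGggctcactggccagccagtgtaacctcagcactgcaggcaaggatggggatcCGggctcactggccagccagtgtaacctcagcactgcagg
4921523A10Rik, Htt+/+ alone: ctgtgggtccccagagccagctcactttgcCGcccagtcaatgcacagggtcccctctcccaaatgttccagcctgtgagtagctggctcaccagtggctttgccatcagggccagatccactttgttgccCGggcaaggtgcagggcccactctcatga
The Sos1 window held 17 CpGs. The Gnrh1 window is a tandem repeat, identical to itself at 100% of bases when moved by 54 bases.

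Of the peaks in both lists, 2 are shown, at chr2:98503089-98503248 (in an intron of Gm10801) and chr17:39981149-39981308 (outside protein-coding genes, 364325 bp from Pgk2).
Gm10801, both lists: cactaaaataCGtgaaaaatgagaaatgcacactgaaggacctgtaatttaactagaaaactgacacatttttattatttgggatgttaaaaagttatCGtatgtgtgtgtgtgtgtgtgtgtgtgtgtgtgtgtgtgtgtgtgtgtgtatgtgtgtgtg
Pgk2, both lists: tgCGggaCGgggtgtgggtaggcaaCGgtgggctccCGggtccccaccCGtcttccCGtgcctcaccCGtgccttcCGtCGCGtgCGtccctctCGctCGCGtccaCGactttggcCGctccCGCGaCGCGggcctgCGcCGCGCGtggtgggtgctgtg
The Gm10801 window ran into a long stretch of alternating t and g at a GC content of 36.2%, and the Pgk2 window held 24 CpGs at 74.4%. Both were also listed in both ASO libraries, and they had 110 and 151 reads at the summit in HttQ111/+, where most peaks had 2 to 4. No list of repeat regions was applied to the peaks.

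Few peaks were shared by the genotypes. Of HttQ111/+ peaks 9.83% overlapped an Htt+/+ peak (95% Wilson interval 9.56% to 10.1%), and of Htt+/+ peaks 10.6% overlapped an HttQ111/+ peak (10.3% to 10.9%). Such intervals cover counting error only, since neighbouring peaks and reads are not independent. For comparison, an interval of 210 bp, the median HttQ111/+ width, would touch an Htt+/+ peak from 0.878% of the ungapped positions of these chromosomes, and one of 230 bp an HttQ111/+ peak from 0.95%. The shared peaks formed 4567 loci, 4519 of them with 1 peak of each genotype. There was 1.09 peak in HttQ111/+ alone for each in Htt+/+ alone (1.07 to 1.1), beside 1.08 for all peaks. With the minimum raised to 5 and 8 reads in both lists this ratio was 1.46 and 1.68. The lists themselves then held 8866 HttQ111/+ and 6620 Htt+/+ peaks at 5 or more reads, and 2303 and 1660 at 8 or more. Leaving out shared peaks, 720 and 719 at 8 or more reads, widens the ratio of unequal lists. Without a raised minimum the ratio was above 1 on 19 of 19 chromosomes and ran from 1.01 on chromosome 18 to 1.22 on chromosome 19. All chromosomes come from the same library of each genotype, so they are not replicates of this ratio. Of HttQ111/+ alone 6.47% and of Htt+/+ alone 6.78% lay within 1000 bp of a listed peak of the other genotype. The median distance over each class was 13.9 kb and 13.1 kb. Distances between listed peaks do not show whether the other library had reads at the site that were too few for a peak.

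The share in both lists rose with the reads at the summit. Reads were recovered as the whole number that accounts for the fold enrichment and p-value of a peak, which matched 100% of peaks in both lists. The libraries were shallow and alike in depth, at 1.1 ChIP reads per kb in HttQ111/+ and 1.12 in Htt+/+, and 2 reads were enough for a peak at the lowest background. In HttQ111/+, 5.65% of the 8356 peaks with 2 reads were in both lists, 9.09% of those with 4, 16.1% of those with 5 to 7, 38.3% of those with 8 to 11 and 64.0% (59.2% to 68.6%) of the 403 with 12 or more. In Htt+/+ the shares were 5.14%, 10.4%, 21.4%, 57.8% and 76.5% (71.2% to 81.1%). The intervals of the genotypes did not overlap from 5 reads upward, where the Htt+/+ share was higher, as was the number of HttQ111/+ peaks it was set against. In that range 8866 HttQ111/+ and 6620 Htt+/+ peaks had 5 or more reads, and 2303 and 1660 had 8 or more. Peaks with 2 to 4 reads made up 55.6% of peaks in both lists (HttQ111/+ peaks), 83.8% of HttQ111/+ alone and 88.3% of Htt+/+ alone.

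**Figure D1:**
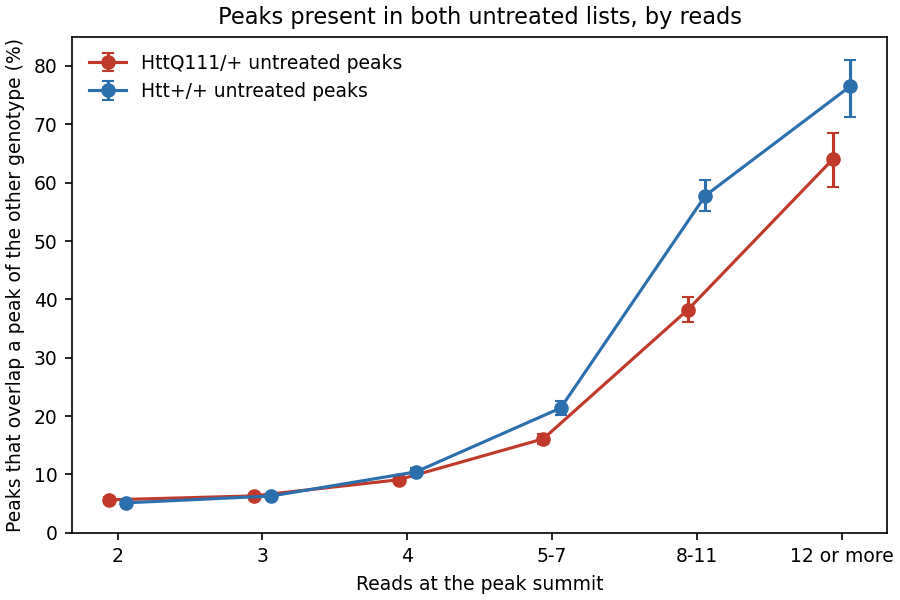
Share of untreated peaks that overlap a peak of the other genotype (y axis, percent), by reads at the summit (x axis), for HttQ111/+ (red) and Htt+/+ (blue), with bars for 95% Wilson intervals. Both lines rise from about 5% at 2 reads, to 64.0% in HttQ111/+ and 76.5% in Htt+/+ at 12 or more.

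Start sites were over-represented in every class and, over peaks of all read numbers, most of all in both lists. A summit lay within 1 kb of the start of a protein-coding transcript in 28.1% of peaks in both lists (26.8% to 29.4%, HttQ111/+ peaks), 7.94% of HttQ111/+ alone (7.69% to 8.20%) and 5.10% of Htt+/+ alone (4.88% to 5.32%), beside 2.36% of ungapped bases. The order of the classes went with reads, which differ between them. At 2 reads the share was 4.24% in both lists, 2.5% in HttQ111/+ alone (2.18% to 2.87%) and 2.2% in Htt+/+ alone (1.90% to 2.54%), both of which hold the share of bases in their interval. At 5 to 7 reads it was 43.3%, 23.6% (22.5% to 24.7%) and 16.9% (15.8% to 18.1%), and at 8 to 11 reads 72.5%, 66.2% (63.4% to 68.8%) and 62.9% (58.9% to 66.7%). At 12 or more reads both lists no longer led, with 59.3% (53.2% to 65.1%), 69.0% (61.0% to 75.9%) and 59.1% (47.0% to 70.1%), and the intervals overlapped. HttQ111/+ alone was thus above Htt+/+ alone beyond counting error at 3 to 7 reads and not at 8 or more. With its read strata weighted to the numbers of Htt+/+ alone, the HttQ111/+ alone share was 6.37% instead of 7.94%, beside 5.10%.

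**Figure D2:**
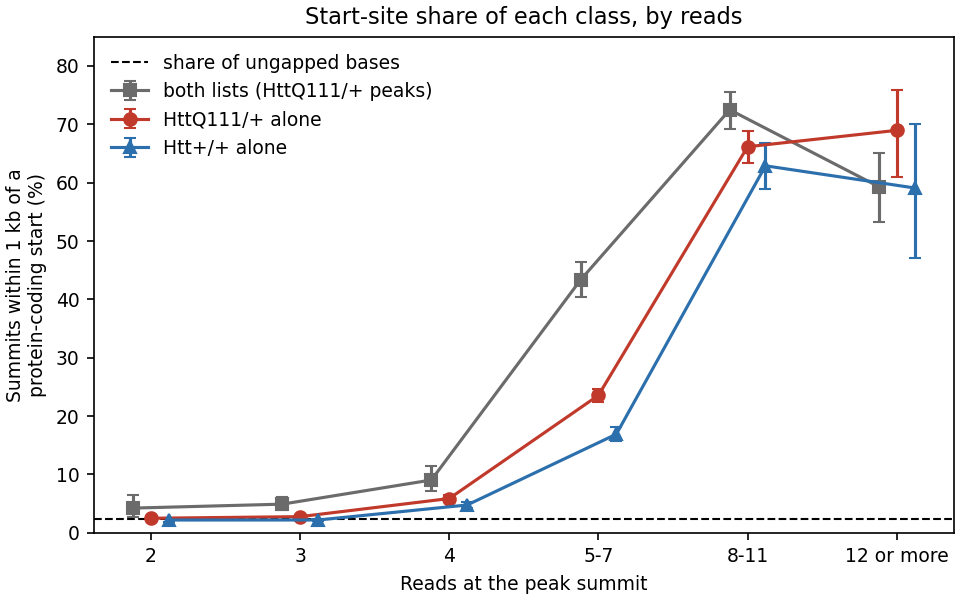
Share of summits within 1 kb of a protein-coding start (y axis, percent) by reads at the summit (x axis), for peaks in both lists (grey squares), HttQ111/+ alone (red circles) and Htt+/+ alone (blue triangles), with bars for 95% Wilson intervals and a dashed line at the 2.36% of ungapped bases in that window. At 2 reads the single-list classes stand at the line and peaks in both lists at 4.24%. At 5 to 7 reads both lists, HttQ111/+ alone and Htt+/+ alone stand at 43.3%, 23.6% and 16.9%, and at 12 or more at 59.3%, 69.0% and 59.1%.

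Summits at start sites sat inside the gene more often than before it. Of start-site peaks 80.6% in both lists lay downstream of the start, with a median position 207 bp into the gene, against 72.3% (154 bp) in HttQ111/+ alone and 69.4% (144 bp) in Htt+/+ alone. Away from start sites, exons held 12.3% of peaks in both lists, 7.93% of HttQ111/+ alone and 6.71% of Htt+/+ alone, beside 2.9% of bases. Introns held 21.2%, 33.0% and 33.4%, beside 35.2%, and sequence outside protein-coding genes and exons 38.4%, 51.1% and 54.8%, beside 59.5%. The 1 kb around transcript ends, start-site windows left out, held 4.66%, 3.76% and 3.63%, beside 2.31% of bases.

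Peaks in a single list were mostly as narrow as a peak of their library could be. The narrowest width was 210 bp in HttQ111/+ and 230 bp in Htt+/+, and 62.0% of HttQ111/+ alone and 65.4% of Htt+/+ alone had it, so that these values are also their medians. Peaks in both lists had a median of 257.5 bp in HttQ111/+ and 267 bp in Htt+/+, with 34.1% and 36.3% at the narrowest. Width rose with reads in all classes. At 8 to 11 reads the median was 340 bp in both lists and 270 bp in HttQ111/+ alone for HttQ111/+ peaks, and 320 bp and 286 bp for Htt+/+ peaks. The difference of 20 bp between the 2 floors cannot be told apart from the fragment length that each call assumed.

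All classes were rich in G and C. The 200 bp at the summit had a median GC content of 60% in both lists, 52.5% in HttQ111/+ alone and 51% in Htt+/+ alone, beside 42% over fixed windows of the same size tiled along these chromosomes. A GC content of 60% or more was found in 50.4% of peaks in both lists, 16.2% of HttQ111/+ alone and 9.62% of Htt+/+ alone, beside 1.28% of windows. The ratio of observed to expected CpG reached 0.6, a common mark of CpG islands, in 35.7%, 9.52% and 6.17%, beside 2.83% of windows. These values, too, went with reads: in HttQ111/+ alone the median GC content was 49.5% at 2 reads and 73% at 8 to 11, and in Htt+/+ alone 48.5% and 72%. Away from start sites the medians were 57%, 52% and 51%. At start sites they were 74%, 69% and 63%, and 87.0%, 62.1% and 49.1% of these peaks reached the CpG ratio of 0.6.

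**Figure D3:**
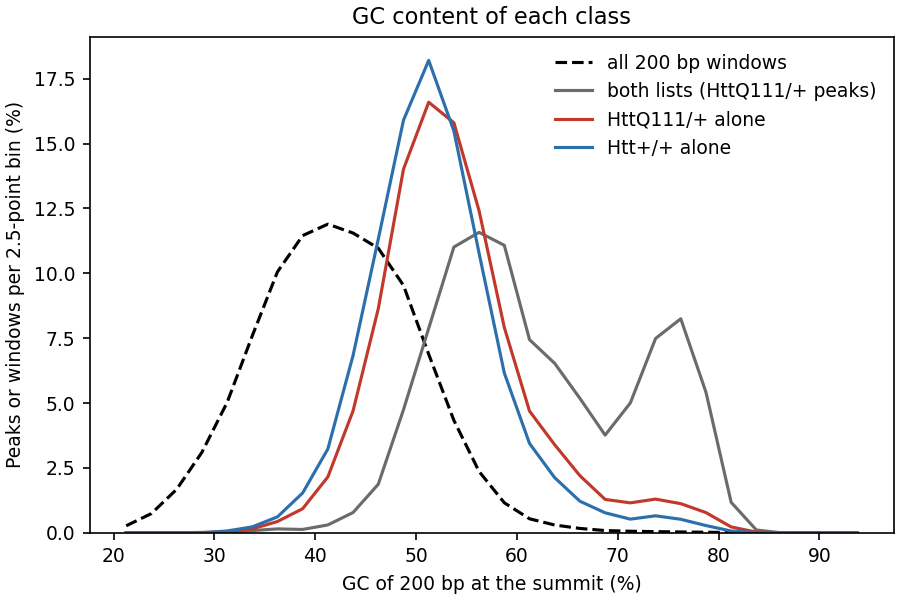
GC content of the 200 bp at the summit (x axis, percent) against the share of peaks per bin of 2.5 points (y axis, percent), for peaks in both lists (grey), HttQ111/+ alone (red), Htt+/+ alone (blue) and all fixed 200 bp windows (dashed). Both single-list classes lie right of the windows, with medians of 52.5% and 51% against 42.0%, and peaks in both lists have a second rise between 70% and 80%.

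Short motifs were searched in the same windows as exact matches on either strand. GGGCGG, the GC box, was in 23.8% of peaks in both lists, 8.42% of HttQ111/+ alone and 5.59% of Htt+/+ alone, beside 2.01% of windows. In windows of 50% to 60% GC this order was gone, with 4.61% (3.76% to 5.65%), 4.72% and 4.21%, beside 5.50% of genome windows of that composition. CCAAT went the other way, with 15%, 22.1% and 24.5%, beside 29.1%. In windows of 50% to 60% GC its shares were 21.2%, 21.5% and 22.3%, beside 23.5%. There the intervals of the classes overlapped, and all lay below the share of genome windows. CAGCAGCAG, a short run of the CAG unit that is lengthened in the HttQ111 allele, was in 5.86%, 3.12% (2.96% to 3.29%) and 2.22% (2.08% to 2.37%), beside 0.707% of windows. The search read the mouse reference and does not cover the tract of that allele. For this motif an order stayed in windows of 50% to 60% GC, with 3.20% (2.5% to 4.08%), 2.54% (2.34% to 2.75%) and 2.13% (1.94% to 2.34%), beside 1.67%, where the last 2 intervals touch at 2.34%. At start sites and away from them its share was 5.04% and 6.17% in both lists, 3.59% and 3.08% in HttQ111/+ alone, and 3.69% and 2.14% in Htt+/+ alone. CCGGAAG, an ETS factor motif, was in 3.09%, 1.86% and 1.62%, beside 0.579%, and in windows of 50% to 60% GC in 1.99%, 1.5% and 1.63%, beside 1.36%. The motifs CACGTG (E box), TGACTCA (AP-1), TGACGTCA (CRE), GCATGCGC (NRF1) and CACACACA were in 3.42%, 2.33%, 0.131%, 0.675% and 3.13% of peaks in both lists, beside 1.99%, 3.14%, 0.111%, 0.223% and 6.23% of windows. At 50% to 60% GC these were 3.4%, 3.88%, 0.0524%, 0.471% and 4.5%, beside 3.38%, 3.47%, 0.278%, 0.478% and 5.6%. In that range only the interval of CACACACA (3.66% to 5.53%) left out the share of genome windows. A match describes the letters and not a bound factor.

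The ASO libraries were used to ask which single-list peaks were seen again. Peaks of both genotypes were found more often in Htt+/+ ASO than in HttQ111/+ ASO. Of HttQ111/+ alone peaks 4.05% (3.87% to 4.25%) overlapped a peak of HttQ111/+ ASO, the library of the same genotype, and 6.95% (6.71% to 7.19%) a peak of Htt+/+ ASO. Of Htt+/+ alone peaks the shares were 3.99% (3.8% to 4.19%) and 5.84% (5.61% to 6.08%). Neither ASO library held 89.6% of HttQ111/+ alone and 90.6% of Htt+/+ alone. An interval of 210 bp would touch an HttQ111/+ ASO peak from 0.887% and an Htt+/+ ASO peak from 0.795% of ungapped positions.

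The order was the same with more reads. Of the 1318 HttQ111/+ alone peaks with 8 or more reads, 60 (4.55%) were in HttQ111/+ ASO and 439 (33.3%, 30.8% to 35.9%) in Htt+/+ ASO. Of the 648 such Htt+/+ alone peaks, 30 (4.63%) and 207 (31.9%, 28.5% to 35.6%) were. At start sites with 8 or more reads the Htt+/+ ASO share was 36.8% for HttQ111/+ alone and 38.5% for Htt+/+ alone, with intervals of 33.6% to 40.0% and 33.9% to 43.3%. Of peaks in both lists 11.2% were in HttQ111/+ ASO and 30.7% in Htt+/+ ASO, and with 8 or more reads 14.9% and 61.9%. Of 4567 loci in both lists, 246 (5.39%) had a peak in all 4 libraries. The HttQ111/+ ASO list held 513 peaks with 8 or more reads on these chromosomes and the Htt+/+ ASO list 2446, a difference whose part in the recurrence was not tested.

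**Figure D4:**
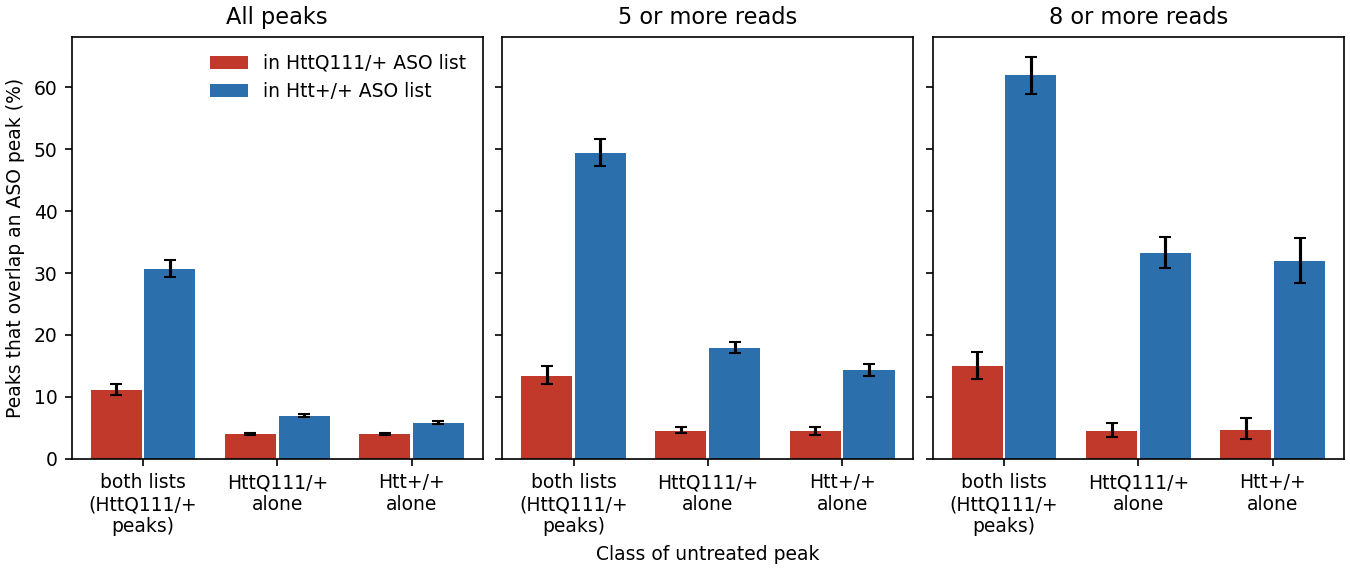
Share of untreated peaks that overlap a peak of the HttQ111/+ ASO (red bars) or Htt+/+ ASO (blue bars) library (y axis, percent), by class (x axis), for all peaks (left), peaks with 5 or more reads (middle) and with 8 or more (right), with 95% Wilson intervals. The blue bar is the higher one in every class, and at 8 or more reads HttQ111/+ alone and Htt+/+ alone stand at 33.3% and 31.9% in Htt+/+ ASO and at 4.55% and 4.63% in HttQ111/+ ASO.

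Of 21410 protein-coding genes, 1655 (7.73%) had a start-site peak in both untreated libraries, 2889 (13.5%) in HttQ111/+ alone and 1632 (7.62%) in Htt+/+ alone, and 15234 (71.2%) in neither. In this count a gene is in both libraries when each has a peak within 1 kb of any of its starts, whether or not these overlap. Among genes of HttQ111/+ alone, 66.1% had an Htt+/+ peak within 20 kb of a start, and among those of Htt+/+ alone 68.8% had an HttQ111/+ peak, beside 66.4% and 70.1% of all genes. The 1 kb around the first start of these genes had a median GC content of 61.2% (both libraries), 58.2% (HttQ111/+ alone), 55.9% (Htt+/+ alone) and 52.4% (neither).

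By the pattern over all 4 libraries, 124 genes had a start-site peak in both HttQ111/+ libraries and in no Htt+/+ library, while 797 had one in HttQ111/+ untreated and Htt+/+ ASO and in no other library. In the mirror pattern 438 genes had one in both Htt+/+ libraries and no HttQ111/+ library, while 81 had one in Htt+/+ untreated and HttQ111/+ ASO. The pattern that follows genotype was thus the rarer one on the HttQ111/+ side and the commoner one on the Htt+/+ side, and in each case the larger number was the one with Htt+/+ ASO. That library had start-site peaks at more genes than HttQ111/+ ASO in every class. At genes of neither untreated library the shares were 11.1% and 3.72%. The part of this difference in the patterns was not tested. A start-site peak was in HttQ111/+ untreated and no other library at 1875 genes, in Htt+/+ untreated and no other library at 1064, and in all 4 libraries at 165.

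Single genes of HttQ111/+ alone were led by Bend3, a repressor of transcription that binds chromatin. Its start-site peak had a fold enrichment of 8.16 on 17 reads (exact Poisson interval 9.90 to 27.2) in HttQ111/+ untreated cortex and was not listed in any other library. At the background of this site, 5 reads would have sufficed for a peak in Htt+/+. The peaks of Sub1 (a transcriptional coactivator), Fam123a, Aspm (a spindle protein of dividing neural progenitors) and Tmem168 had 16, 18, 13 and 15 reads in HttQ111/+. All 4 were absent from HttQ111/+ ASO and listed in Htt+/+ ASO, on 10, 15, 8 and 9 reads. Thoc4 (an mRNA export factor) had 12 reads and Unc5a (a netrin receptor) 16, with no overlapping peak in either ASO library, but a separate Htt+/+ peak lay 532 bp from that of Unc5a. In the count of genes above, Unc5a is in both libraries. These genes were chosen for the highest −log10 p-values among 3347 start-site peaks, so their values describe the top of a list.

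The 4 strongest genes listed in both HttQ111/+ libraries and neither Htt+/+ library were Nup35, Fut11, Smn1 and Rps6. Nup35 encodes a nuclear pore protein and had 8 reads in HttQ111/+ untreated and 7 in HttQ111/+ ASO, with fold enrichments of 13.4 and 6.54. Smn1, the mouse gene for the survival of motor neuron protein, had 10 and 9 reads (8.51 and 5.0). Rps6, a ribosomal protein, had 6 and 8 reads (6.71 and 5.59), and Fut11, a fucosyltransferase, 7 and 12 (6.03 and 4.13). An Htt+/+ peak at these backgrounds would have needed 2 to 4 reads.

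In Htt+/+ alone the strongest start-site peak was that of Sos1, which activates RAS, with a fold enrichment of 15.1 on 14 reads (7.65 to 23.5) in Htt+/+ untreated, 9.21 on 9 reads in Htt+/+ ASO and no overlapping peak in either HttQ111/+ library. Rimbp3 had 14 reads in Htt+/+ untreated and 15 in Htt+/+ ASO, and Mtx1 (a mitochondrial import protein) 11 and 6. Mex3c, an RNA-binding ubiquitin ligase, had 15 and 8. Ptpn9, Fbxo11 and B4galnt3 had 13, 10 and 16 reads in Htt+/+ untreated and no overlapping peak elsewhere. The peak of Gm10106 had 29 reads, but at a fold enrichment of 3.51 and a GC content of 35%. The rule for peaks in both Htt+/+ libraries and no HttQ111/+ library named Sos1, Rimbp3, Kcng3 (a potassium channel subunit, 10 and 11 reads) and Mgat5b (a glycosyltransferase of the brain, 10 and 12 reads). A separate HttQ111/+ peak lay 552 bp from that of Kcng3, which is in both libraries in the count of genes above.

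Peaks over 20 kb from any protein-coding start made up 41.4% of peaks in both lists, 57% of HttQ111/+ alone and 60.2% of Htt+/+ alone. The strongest in HttQ111/+ alone were the peak near Vmn1r200 shown above, with the highest fold enrichment among the named peaks (19.3 on 10 reads, and 3 reads in Htt+/+ ASO), and 2 on chromosome 1, at 85308621 to 85308909 nearest to C130026I21Rik (14 reads) and at 85054153 to 85054573 in an intron nearest to A530032D15Rik (11 reads, and 4 in Htt+/+ ASO). In Htt+/+ alone they lay on chromosome 8 at 74333883 to 74334251 nearest to Gm5373 (10 reads, and 7 in each ASO library), on chromosome 6 at 107780644 to 107780948 nearest to Setmar (8 reads) and on chromosome 6 at 116364471 to 116364824 in an exon nearest to March8 (8 reads). The Gm5373 peak lay 545 bp from an HttQ111/+ peak.

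In both lists the start-site loci with the highest −log10 p-value were led by predicted genes with very many reads at a low fold enrichment. Gm10800 had 280 reads in HttQ111/+ and 286 in Htt+/+ (fold enrichment 3.39 and 3.20), and 337 and 307 in HttQ111/+ ASO and Htt+/+ ASO. Gm10801 had 110, 104, 109 and 107, and Gm10722 127, 151, 150 and 137, in the same order of libraries. Their GC content of 34.5% to 37.5% lay below the lower quartile of peaks in both lists, which was 54.5%. No list of repeat regions was applied, so these loci were not told apart from repeated sequence. Fcgr3, an Fc receptor gene of microglia, had 34, 31, 21 and 35 reads, and Gm10807 26, 34, 22 and 40. The Fcgr3 summit lay 938 bp from the start. Further loci away from starts were also nearest to Fcgr3, with up to 33 reads in HttQ111/+ and 32 in Htt+/+. The loci at Fcgr3 and Gm10807 were likewise not told apart from repeated sequence.

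Pank1 (coenzyme A synthesis), Svep1 (an extracellular matrix protein) and Runx2 (a transcription factor of bone) completed the 8. Pank1 had 10 reads in HttQ111/+ and 13 in Htt+/+, Svep1 12 and 11, and Runx2 11 and 11. All 3 were absent from HttQ111/+ ASO and had 9, 9 and 15 reads in Htt+/+ ASO. The strongest distal loci in both lists lay on chromosome 17 at 39979951 to 39983334, far from Pgk2 (151 and 149 reads), on chromosome 12 at 3109823 to 3110120 (106 and 119) and on chromosome 16 at 57391511 to 57391822 near Filip1l (85 and 73), and all 3 were listed in both ASO libraries. Like the predicted genes above, these distal loci were not told apart from repeated sequence.

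Where both genotypes had a peak, fold enrichments differed by less than 2-fold at most loci. Loci entered only with a peak in both lists, which limits how far their fold enrichments can differ. Over the 4567 loci the log2 ratio of fold enrichment in HttQ111/+ over Htt+/+ had a median of 0.09 and an SD of 0.52 across loci, and 62.6% of loci were above 0. This median is the value shared by many loci with 3 reads in each library, and these count among the loci above 0. A difference of 2-fold or more was found at 264 loci, 186 higher in HttQ111/+ and 78 higher in Htt+/+. Over 714 loci with 8 or more reads in both libraries the median was 0.16 with an SD of 0.46, and 29 loci differed 2-fold. In reads over depth and fragment length the median was 0.16 with an SD of 0.34, and 6 loci differed 2-fold. That median is the value that equal reads in both libraries give after this scaling. A median this near 0 depends on how each library was scaled.

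**Figure D5:**
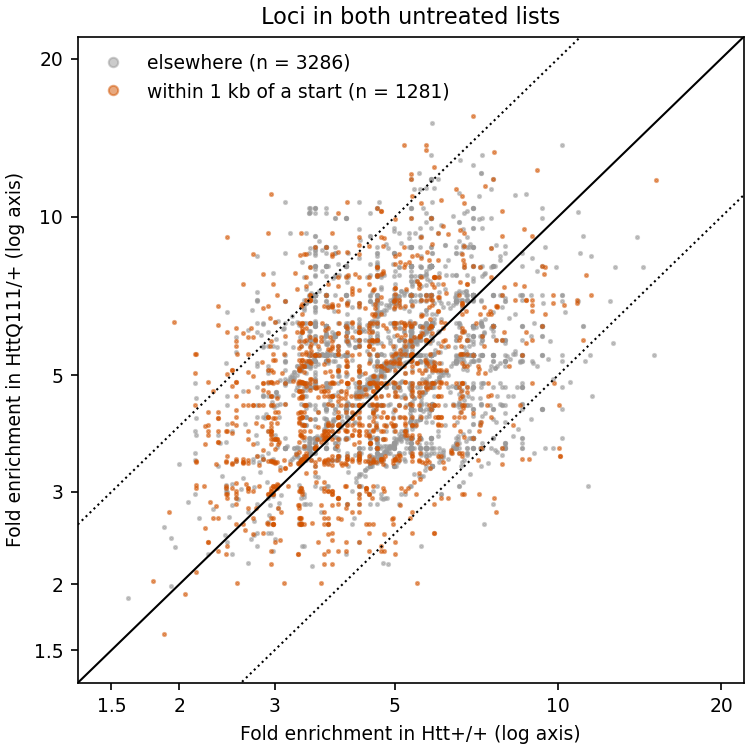
Fold enrichment in HttQ111/+ (y axis) against Htt+/+ (x axis), both log axes, for 4567 loci in both lists, at start sites (orange, n = 1281) or elsewhere (grey, n = 3286). The solid line marks equal values and the dotted lines a 2-fold difference, past which 264 loci lie. The columns and rows of points come from the small whole numbers of reads.

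The genes named here from the ends of the range at start sites rested on few reads. Bag2, a co-chaperone, had a fold enrichment of 11.1 on 15 reads in HttQ111/+ and 2.95 on 7 reads in Htt+/+ (log2 ratio 1.91), Mecom (a zinc finger transcription factor) 9.14 on 8 and 2.45 on 5 (1.90), Nes (the neural progenitor filament nestin) 6.32 on 15 and 1.96 on 10 (1.69), and Mex3d (an RNA-binding protein) 9.33 on 11 and 2.91 on 6 (1.68). In the other direction BC024659 had 3.50 on 5 reads in HttQ111/+ and 10.1 on 10 in Htt+/+ (−1.53). Zdhhc7 (a palmitoyltransferase) had 2.74 on 8 and 7.67 on 13 (−1.48) and Dbnl (an actin-binding protein of synapses) 3.64 on 3 and 10 on 9 (−1.46). The ratio of reads was smaller than that of fold enrichments at all of these genes but Dbnl, and the fold enrichment also holds the local background. They were chosen from 1281 loci for these ratios.

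Htt itself (chromosome 5, 35104389 to 35255183, plus strand) had 1 peak in HttQ111/+ and 4 in Htt+/+, none of them overlapping. The only one near a start was in Htt+/+ alone, at 35104682 to 35104995, 271 bp from the start, with a fold enrichment of 2.45 on 5 reads. The HttQ111 allele carries a human exon 1, so near this start a difference in binding cannot be told apart from one in sequence. The HttQ111/+ peak, at 35188740 to 35189026, had 3 reads. From 20 kb before the start to 1 kb past the end of the gene, the density of peaks over the genome would give 3.36 in HttQ111/+ and 3.12 in Htt+/+.

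The genes that the study names as striatal identity or developmental genes had few reads at their peaks. Ppp1r1b (DARPP-32, a phosphatase regulator of striatal projection neurons) had a start-site peak in HttQ111/+ alone, 532 bp from the start, with a fold enrichment of 2.60 on 6 reads, and 9 reads at a start in Htt+/+ ASO. In the same window as for Htt it had 2 peaks in HttQ111/+ and 1 in Htt+/+, beside 0.594 and 0.551 from density. Of these, 1 and 0 lay inside the gene. The other HttQ111/+ peak and the Htt+/+ peak lay before it, 1124 bp and 4661 bp from the start of another gene. Pde10a (a cyclic nucleotide phosphodiesterase of the same neurons) had 9 peaks in HttQ111/+ and 12 in Htt+/+, beside 9.42 and 8.75 from density, and each library had 1 peak that overlapped the other's, at 8875388 to 8875597 (2 reads) and 8875561 to 8875891 (5 reads) of chromosome 17. Its start-site peaks lay at different starts, with 4 reads in HttQ111/+ and 6 in Htt+/+. Rgs9 (a regulator of G protein signalling) had 5 and 3 peaks on 2 to 5 reads, none overlapping, beside 1.83 and 1.70 from density, and Foxp2 (a transcription factor of deep cortical layers and striatum) 2 and 4, beside 11 and 10.2 from density, with a start-site peak of 5 reads in Htt+/+ alone. Sox11 had none.

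Gene groups chosen for cortex, striatum and HTT biology were counted beside the shares of all genes (7.73%, 13.5% and 7.62% for both libraries, HttQ111/+ alone and Htt+/+ alone). These counts were not adjusted for the number of starts of a gene. Nor were they adjusted for GC content at the start, with a median of 61.2% in genes of both libraries and 52.4% in genes of neither. Of 32 genes of synaptic adhesion and scaffold, 7 (21.9%) had a start-site peak in both libraries, 5 (15.6%) in HttQ111/+ alone and 4 (12.5%) in Htt+/+ alone. The 7 were Dlgap3, Dlgap4, Homer2, Nlgn2, Nrxn2, Nrxn3 and Shank3, of which Nrxn3 rested on 3 reads in each untreated library. Dlgap4 (a postsynaptic scaffold) had 13 reads in each untreated library and 17 in Htt+/+ ASO, Shank3 7 and 8, and 8 in Htt+/+ ASO, and Nlgn2 (an adhesion protein of inhibitory synapses) 10 and 6, and 9 in Htt+/+ ASO. None of the 3 was listed in HttQ111/+ ASO. Homer1, of the same family as Homer2, had 13 reads in HttQ111/+ untreated and no start-site peak in any other library.

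Of 30 Polycomb genes, 3 (10%) were in both libraries, 7 (23.3%) in HttQ111/+ alone and 3 (10%) in Htt+/+ alone. The 7 held 2 core subunits of the complex that methylates H3K27, Eed (8 reads in HttQ111/+ and 7 in Htt+/+ ASO) and Suz12 (7 reads in HttQ111/+ and no peak elsewhere), and 5 of the ubiquitin ligase complex, Cbx7, Pcgf2, Phc1, Ring1 and Rybp, on 6 to 8 reads. Members in Htt+/+ alone included Rnf2 and Scmh1, on 8 and 13 reads, and both libraries held Aebp2, Pcgf1 and Phc3.

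Of 28 HTT partners and transcription regulators, 4 (14.3%), 6 (21.4%) and 2 (7.14%) were in these classes. Rest, the repressor of neuronal genes whose nuclear entry HTT is known to affect, had 6 reads in HttQ111/+ untreated and 8 in Htt+/+ ASO, and its corepressor genes Rcor1 and Sin3a had 8 and 5 reads in HttQ111/+ untreated and no listed start-site peak in Htt+/+ untreated. Rcor1 was listed in both ASO libraries, on 8 reads in HttQ111/+ ASO and 6 in Htt+/+ ASO, and the related Rcor2 in both untreated libraries, on 8 and 11. Sp1 was in both libraries with 3 and 4 reads and Ncor1 with 2 and 11.

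Markers of cell types gave small numbers. Striatal projection neuron genes numbered 1, 6 and 4 of 25 in both libraries, HttQ111/+ alone and Htt+/+ alone, cortical excitatory neuron genes 3, 6 and 2 of 24, interneuron genes 3, 3 and 4 of 20 and astrocyte genes 3, 3 and 0 of 15. Oligodendrocyte genes gave 0, 2 and 3 of 15, and microglial and endothelial genes 0, 2 and 1 of 20. In both libraries were Cux2, Pou3f2 and Pou3f3 (upper-layer cortical factors), Dlx1, Dlx2 and Calb2 (interneurons) and Sox9, Nfia and Nfib (astrocytes). Pou3f3 had 10 reads in HttQ111/+ and 6 in Htt+/+, and 8 and 13 in HttQ111/+ ASO and Htt+/+ ASO, and it was 1 of 4 list members with a start-site peak in all 4 libraries, with Aebp2, Ncor1 and Jund. Adora2a and Adcy5, the adenosine receptor and adenylyl cyclase of striatal neurons, had 9 and 10 reads in HttQ111/+ untreated and no other start-site peak, and Ebf1 11 in Htt+/+ untreated and 13 in Htt+/+ ASO.

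Immediate early genes numbered 3, 3 and 4 of 22. Jund had 6, 13, 12 and 14 reads in HttQ111/+, Htt+/+, HttQ111/+ ASO and Htt+/+ ASO, and Ier5 14, 17, none and 12. Egr1 and Egr2 had 7 reads each in HttQ111/+ alone of the untreated libraries, while Npas4 and Nr4a3 had 8 each in Htt+/+ untreated and in no other library. Ribosomal protein genes stood near all genes, with 7 (9.09%), 9 (11.7%) and 7 (9.09%) of 77. Olfactory receptor genes, which cortex does not express and which lie in AT-rich sequence, stood below in every class with 10 (0.904%), 30 (2.71%) and 46 (4.16%) of 1106, and were the only list besides interneuron, oligodendrocyte and immediate early genes with more members in Htt+/+ alone than in HttQ111/+ alone.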

How the data were processed

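HTT ChIP-seq was analysed in untreated B6.HttQ111/+ and B6.Htt+/+ cortex, 1 library each, and the ASO libraries served only to see whether peaks recurred. Per the labels and methods, the authors converted reads with bcl2fastq 2.17, aligned them with HISAT2, down-sampled the ChIP libraries to the smallest, combined the 4 inputs as a single control for peak calling by MACS2. Tools come from the submitters' processing notes. The deposited lists give, for each peak, a score, the fold enrichment of the summit over the control, and −log10 p and q values, as MACS2 writes them. The score was not used beyond reading the lists.

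The labels name mm9 and the methods another build. Coordinates were read as mm9, since 0 peaks passed a chromosome end and 9.92% (HttQ111/+) and 7.54% (Htt+/+) of summits lay within 1 kb of a protein-coding start, against 3.25% and 3.06% with starts moved by 500000 bp. Genes came from a GENCODE annotation of NCBIM37.

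Whole reads at each summit, and the depth per library, were recovered from the fold enrichment and its Poisson p-value to a tolerance of 0.01, which matched 100% of peaks in both lists. The step was tested on simulated data. Shares carry 95% Wilson intervals, and no test was made, with 1 library a group. Named genes were the 8 start-site peaks of each class with the highest −log10 p, the 4 in both libraries of 1 genotype only, the 4 highest and lowest ratios in both lists, 3 distal peaks a class, list members and the genes that the study names. Classes and lists were chosen with earlier results of these data known. Sequences are shown for the top peaks without exons in the window, chromosome 18 left out. A few items that these rules select are not reported here. Scripts ran in Python 3.11.15 with pandas 2.3.3, numpy 2.4.6 and scipy 1.17.1, and plots were drawn with matplotlib 3.10.9. Alternatives varied the overlap rule, read and q minimum, start window and GC window. Inputs, a blacklist of repeats and other sequences than chromosomes 1 to 19 were not analysed here.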

Additional observations from a re-analysis of the deposited data

Results flagged for a closer look

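The contrast of genotypes was not alike with and without ASO, and this difference was not tested, as each group had 1 library. The ratio of HttQ111/+ to Htt+/+ peak numbers was 1.08 untreated and 0.987 with ASO. Peaks at start sites made up 9.92% in HttQ111/+ untreated and 7.54% in Htt+/+ untreated, but 2.87% in HttQ111/+ ASO and 9.96% in Htt+/+ ASO. Peaks with 8 or more reads on chromosomes 1 to 19 numbered 2303 and 1660 untreated, and 513 and 2446 with ASO, in the same order.

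Peaks outside chromosomes 1 to 19, which enter no comparison above, numbered 1208 in HttQ111/+ untreated and 1229 in Htt+/+ untreated. Of these 707 and 667 lay on X, 17 and 23 on Y, and 484 and 539 on other sequences.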

How the results depend on the processing

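No paired analysis was possible because each group had 1 library and no result came from a test, and for the same reason no replicate could be left out. Values are given for peaks in both lists, HttQ111/+ alone and Htt+/+ alone in this order, and causes were not tested. The shares of HttQ111/+ and Htt+/+ peaks in both lists were 6.48% and 6.98% with a reciprocal overlap of 50%, 9.13% and 9.81% with summits within 250 bp, 8.68% and 11.1% with q below 0.01, 19.6% and 26.3% with at least 5 reads and 31.3% and 43.3% with at least 8. The ratio of single-list peaks was 1.31 with q below 0.01, and 1.11, 1.46 and 1.68 with at least 3, 5 and 8 reads. This ratio also holds the difference in size between the lists at each minimum, which was not taken out. Start-site shares were 23.2%, 6.06% and 3.61% within 500 bp, 32.8%, 11.1% and 8.09% with starts of all genes, 62.8%, 31.2% and 22.8% with at least 5 reads, and 32.3%, 8.40% and 5.87% with q below 0.01. With any part of the peak in the window they were 8.30% and 5.44% in the single-list classes, and weighted to the reads of Htt+/+ alone 6.37% in HttQ111/+ alone. This weighting and the minimum of 8 reads were chosen after seeing the data. With at least 5 reads the median width was 324, 259 and 279 bp and the median GC content 73.5%, 63% and 60%. The width was 1.23 times the narrowest in both lists and 1 in either single-list class, where the difference of 210 and 230 bp was gone. The GC content over whole peaks was 52.8% and 51.1% in the single-list classes, and away from starts 57% and 52% in both lists and HttQ111/+ alone. Recurrence in HttQ111/+ ASO was 6.90%, 2.17% and 2.12% with reciprocal overlap, 13.5%, 4.92% and 4.69% with at least 5 reads in the untreated libraries and 13.1%, 3.56% and 3.34% with at least 5 in every library. Recurrence in Htt+/+ ASO was 22%, 4.56% and 3.77%, then 53.5%, 18.3% and 15.1%, then 52.4%, 15.2% and 11.9%. With 20 kb around starts 11002 genes were in both libraries, 4013 in HttQ111/+ alone and 3223 in Htt+/+ alone, so that genes in both, fewer than those of HttQ111/+ alone within 1 kb, were then the more numerous, and with at least 5 reads 1015 were in Htt+/+ alone. The median log2 ratio in both lists was 0.16 in reads over depth and 0.10 with at least 5 reads in either library. The value of 0.16 is what equal reads in both libraries give after scaling. The other 15 values moved by less than their interval or 1.5 times. With 2 to 4 reads at 81.1% of HttQ111/+ and 84.8% of Htt+/+ peaks, depth limits what either list can hold, and a peak in a single list is not shown to be absent from the other library.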

Other observations

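Peaks were unevenly spread over chromosomes in a way that the classes shared. Per Mb, all were sparsest on chromosome 3 and densest on chromosome 11, at 1.37 and 3.09 in both lists, 13.1 and 24.8 in HttQ111/+ alone, and 12.1 and 20.6 in Htt+/+ alone. Genes with a start-site peak in neither untreated library had one in HttQ111/+ ASO at 3.72% and in Htt+/+ ASO at 11.1%. For genes of HttQ111/+ alone these shares were 7.51% and 30.8%, for genes of Htt+/+ alone 7.97% and 29.8%, and for genes in both 14.9% and 57.2%.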
